A study of Homo sapiens with 4 samples.

Results

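The MYC, MAX and MXD network was represented by 10 genes, fixed by name and found in the deposited table of 64252 Ensembl genes by identifier: MYC, MYCN, MYCL, MAX, MXD1, MXD3, MXD4, MXI1, MNT and MGA. The rule used their names and no measured value, but the set was proposed with earlier results of these data known. RNA had been sequenced from an acute myeloid leukemia line labelled NB4, a promyelocytic line with the PML-RARa fusion, and all 4 libraries came from this 1 line. In 2 libraries the cells had received 8 μM dBET1 for 24 h, and in the other 2 they had received DMSO, the solvent, for the same time. dBET1 is a chimeric degrader that links a binder of BET bromodomain proteins to a binder of CRBN, part of an E3 ubiquitin ligase. The libraries held 28019956 to 34685645 counts. Genes with any count numbered 25274 and 24589 with DMSO and 28356 and 28353 with dBET1. The part of this difference in calls on few counts was not tested. The labels number replicates but do not say that they came from separate cultures, so the p-values measure only the spread between these libraries, which may be technical.

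The labelled cell type was checked first. Of 6 markers of promyelocytes and neutrophil granules, ELANE and CTSG had 0 counts in every library, MPO had 0 counts in both DMSO libraries, and the 6 together summed to 1.14 to 2.2 counts-per-million (CPM, on the normalized library size). By contrast, 12 erythroid markers, among them GATA1, KLF1 and the globin genes, summed to 6517 and 7859 CPM with DMSO and to 3920 and 3843 CPM with dBET1, and none of the 12 was at 0. Markers of monocytes summed to 35.6 and 40.7 CPM with DMSO and to 18.1 and 21.6 with dBET1, those of T cells, nearly all from CD3D, to 28.0 and 32.0 against 11.1 and 10.6, and those of B cells and megakaryocytes to at most 4.55 CPM, with MS4A1, CD2 and PF4 at 0. The defining promyelocyte genes were thus at or near 0 in both groups, against the label, and the cells are called by their label here. Of the 12 erythroid markers 10 were lower with dBET1, and TAL1 and EPOR did not pass the test. Among monocyte markers LYZ and CD68 were lower, while CD14 and CSF1R were higher on at most 48 counts, and CD3D was the 1 T cell marker tested and was lower. MPO was higher on 22 and 10 counts. The part of these cells in the results was not tested.

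MAX is a small basic helix-loop-helix leucine zipper protein that most of this network needs in order to bind DNA, at the E-box CACGTG. The MYC proteins, paired with MAX, recruit coactivators and promote growth, ribosome production and the cell cycle. MXD proteins, MXI1 and MNT pair with the same MAX, recruit the SIN3 and histone deacetylase corepressors and oppose MYC at shared sites, while MGA carries MAX into a Polycomb complex. BET proteins are known to sustain MYC transcription in many blood cancers, which is why MYC is a usual readout of BET inhibition.

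The genes of the network did not move as a block. MYC, MAX and MXI1 were lower after dBET1, MXD1, MXD3 and MXD4 were higher, and MYCL, MNT and MGA did not pass the test, while MYCN had no count in any library. The 9 members that passed the count filter were tested among 17971 genes by the quasi-likelihood test of edgeR, and p-values were adjusted over all of them (Benjamini-Hochberg). At an adjusted p under 0.05, 3 of 9 members (33.3%) were lower, beside 27.6% of all genes, and 3 of 9 (33.3%) were higher, beside 28.0% of all genes, so that the number of changed members was near the background. With an absolute log2 fold change above 1 also required, 2 members were higher (16.9% of all genes passed this limit) and 0 were lower (8.54% of all genes). The median log2 fold change was 0.12 over the 9 members and 0.048 over all genes tested. In bulk RNA, fewer cells that express a gene and less of its RNA per cell cannot be told apart.

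**Figure D1:**
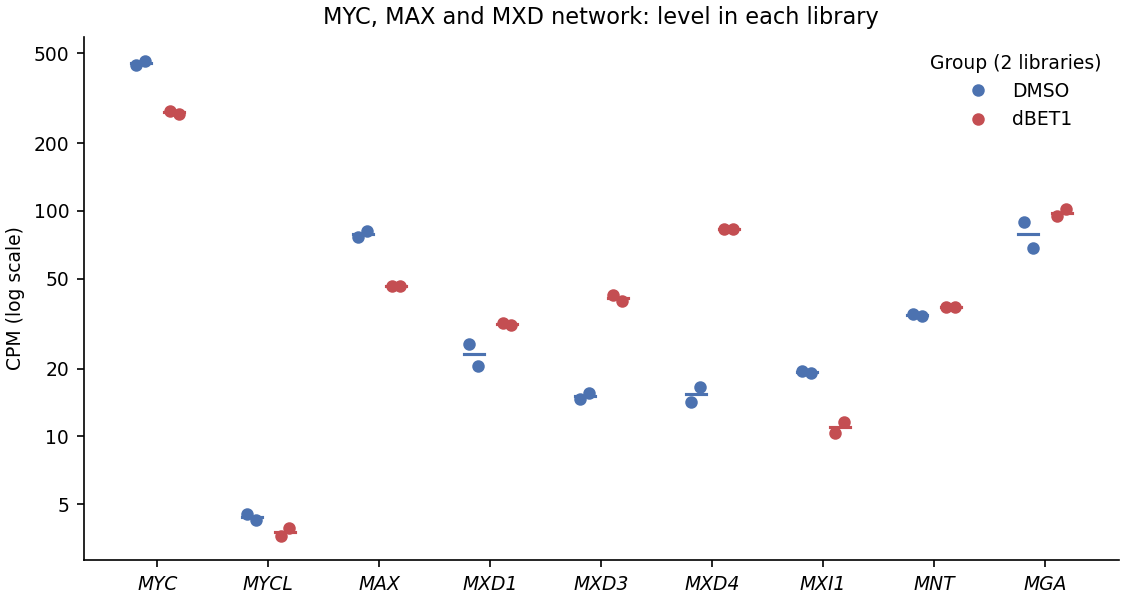
Level of the 9 members with counts in each of the 4 libraries, in CPM on a log scale. Points are libraries (blue, DMSO, and red, dBET1) and short lines are group means. MYC stands above all other members in every library, and MXD4 moves from among the lowest levels to about 83 CPM.

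MYC encodes c-MYC, the activating arm of the network, and lies on chromosome 8 of hg38 (ENSG00000136997, 127735434 to 127742951, forward strand). It reached 445 and 465 CPM in the DMSO libraries and 278 and 269 CPM in the dBET1 libraries. The groups did not overlap, and each pair of replicates lay close together. With 2 libraries per group, unchanged genes can separate in this way too. The share of all genes that did was not counted, here or for the members below. The log2 fold change was -0.73 (95% interval -0.90 to -0.57, adjusted p = 0.000101), a ratio of 0.601 to the DMSO level on the normalized scale. Such values are relative to each library, so a change in total RNA per cell would not show in them, for MYC or any other gene. Per kilobase of annotated exon, MYC ranked 680 among 16631 tested genes with a length, averaged over the libraries.

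The other MYC paralogs contributed little RNA. MYCL, which acts like MYC in some epithelial and dendritic cells, had 4.54 and 4.27 CPM with DMSO and 3.60 and 3.93 CPM with dBET1. These groups did not overlap, but the interval of the log2 fold change, -0.74 to 0.29 around -0.23, held 0 (adjusted p = 0.417). MYCN, the paralog known from neuroblastoma, had 0 counts in every library, which allows at most 3 counts, or 0.0865 to 0.107 CPM of the library totals, and this limit covers counting error only.

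MAX (ENSG00000125952), the common partner, lies on chromosome 14 from 65006174 to 65102695 on the reverse strand, and it was lower as MYC was. It had 76.7 and 81.8 CPM with DMSO and 46.6 and 46.6 CPM with dBET1, a log2 fold change of -0.77 (95% interval -0.96 to -0.57, adjusted p = 0.000217). No dBET1 library reached the level of a DMSO library. The ratio of MYC to MAX counts was 5.80 and 5.68 with DMSO and 5.97 and 5.78 with dBET1, so the groups overlapped and the ratio moved by 0.032 on the log2 scale, beside a replicate SD of 0.0278. Exons of FNTB, a farnesyltransferase subunit gene on the opposite strand, cover 13.1% of the annotated MAX exons. FNTB had 612 and 522 counts with DMSO and 310 and 348 with dBET1, and its part in the MAX counts was not tested.

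Among the antagonists, MXD4 changed the most of the 9 tested members. MXD4 (ENSG00000123933, chromosome 4, 2247432 to 2262109, reverse strand) is usually raised when cells leave the cycle and differentiate. It was counted 464 and 465 times with DMSO and 2498 and 2543 times with dBET1, or 14.2 and 16.5 CPM against 83.2 and 83.3 CPM. Every dBET1 library was far above every DMSO library. Its log2 fold change was 2.44 (95% interval 2.19 to 2.68, adjusted p = 7.28e-06), a ratio of 5.42.

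MXD3 (ENSG00000213347, chromosome 5, 177301461 to 177312757, reverse strand), a family member described in proliferating progenitors and in S phase, was also past the fold limit. It had 14.6 and 15.5 CPM with DMSO and 42.5 and 40.0 CPM with dBET1, a log2 fold change of 1.46 (95% interval 1.20 to 1.71, adjusted p = 3.70e-05). The groups lay well apart. Its annotated exons overlap those of neighbours, with 24.2% in exons of PRELID1 on the opposite strand and 19.5% in exons of RAB24 on the same strand. Both neighbours moved the other way, PRELID1 with a log2 fold change of -1.82 (adjusted p = 7.58e-06) and RAB24 with -0.64 (adjusted p = 0.00579). PRELID1 had 15524 and 14943 counts with DMSO, beside 476 and 436 of MXD3, and 4280 and 4345 with dBET1, beside 1277 and 1222. The part of both neighbours in the MXD3 counts was not tested.

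MXD1 (ENSG00000059728, chromosome 2, 69897688 to 69942945, forward strand), long known as MAD1 and induced in myeloid maturation, rose by less. It had 25.6 and 20.6 CPM with DMSO and 31.7 and 31.1 CPM with dBET1. The dBET1 libraries were nearly equal and above both DMSO libraries, which differed from each other. Exons of SNRNP27, on the same strand, cover 3.73% of the annotated MXD1 exons. SNRNP27 had 1175 and 926 counts with DMSO and 1272 and 1189 with dBET1 (log2 fold change 0.24, adjusted p = 0.0813). Its part in the MXD1 counts was not tested. The log2 fold change of MXD1 was 0.44 (95% interval 0.14 to 0.74, adjusted p = 0.0220). This call was lost without DMSO replicate 2 (0.26, adjusted p = 0.0593), without dBET1 replicate 1 (0.42, adjusted p = 0.109) and without dBET1 replicate 2 (0.44, adjusted p = 0.0892).

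MXI1 went the other way from its relatives. This antagonist, also called MXD2 (ENSG00000119950, chromosome 10, 110207605 to 110287365, forward strand), had 19.5 and 19.1 CPM with DMSO and 10.4 and 11.6 CPM with dBET1. The groups did not overlap, and the log2 fold change was -0.81 (95% interval -1.13 to -0.49, adjusted p = 0.00176). MXI1 was thus the 1 tested antagonist that was lower, with a ratio of 0.570 close to the 0.601 of MYC and the 0.588 of MAX.

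**Figure D2:**
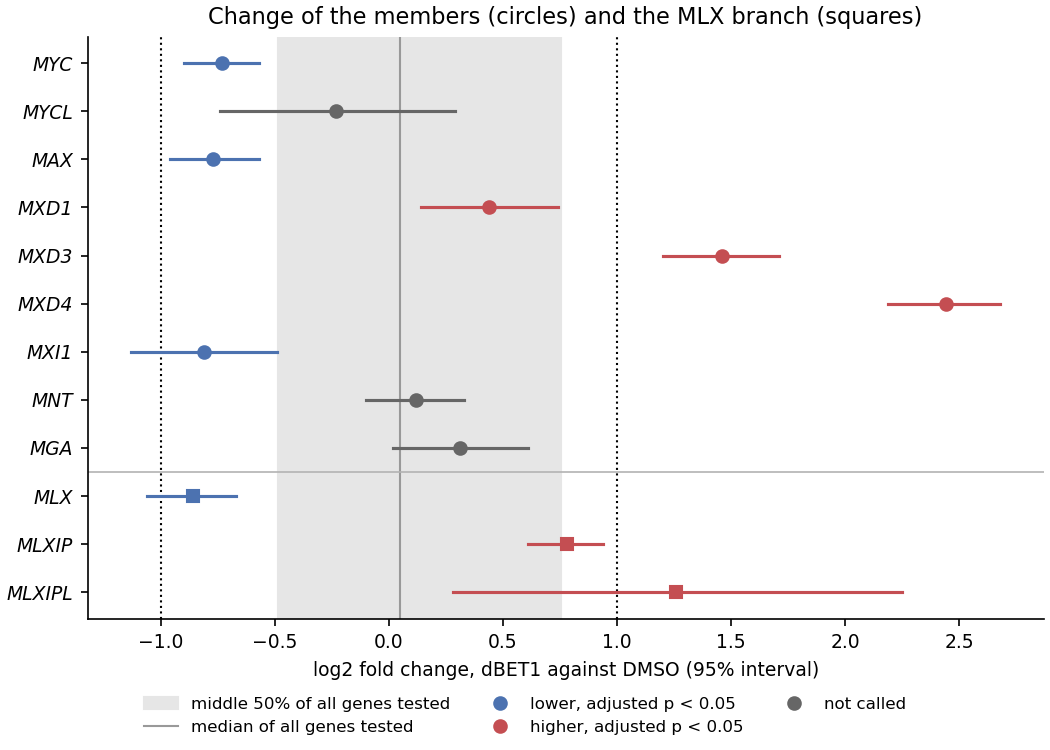
Log2 fold change with its 95% interval for the 9 tested members (circles) and the 3 genes of the MLX branch (squares). The grey band spans the interquartile range of all genes tested, the grey line is their median and the dotted lines mark the fold limit. MXD3 and MXD4 lie right of the limit, and no member lies left of it.

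The members that act more broadly did not pass the test. MNT (ENSG00000070444, chromosome 17, 2384073 to 2401104, reverse strand), which is expressed in most cells whether they divide or not, had 34.9 and 34.3 CPM with DMSO and 37.5 and 37.6 CPM with dBET1. Its log2 fold change was 0.12 with an interval of -0.10 to 0.33 (adjusted p = 0.318), and with total counts in place of the normalization it was 0.33 (adjusted p = 0.0220). MGA (ENSG00000174197, chromosome 15, 41621134 to 41773081, forward strand), the scaffold of the MAX-containing Polycomb complex, had 89.7 and 68.6 CPM with DMSO and 94.9 and 102 CPM with dBET1. The log2 fold change of MGA was 0.31 (95% interval 0.018 to 0.61, adjusted p = 0.0678). That value depended on the DMSO libraries, since it was 0.49 (adjusted p = 0.000258) without DMSO replicate 1 and 0.10 (adjusted p = 0.256) without DMSO replicate 2.

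The promoter windows of the members, not only of the antagonists, were read for E-boxes, because members of the network can themselves be bound by it. The RefSeq windows used, on GRCh38.p14, held 14 start sites for 9 of the 10 members and none for MYC. In the 250 bases before each start, CACGTG, which reads alike on both strands, was found for MXD4 and for MNT. That is 2 of 14 windows, beside 6.34% of all 35116 such windows. The 3 windows below are shown because MXD4 and MXD3 are the members past the fold limit and MNT holds the other match. Each runs 5′ to 3′ on the strand of the gene and ends at the base before the start, with the E-box in capitals.
MXD4, chr4:2262110-2262359, reverse strand: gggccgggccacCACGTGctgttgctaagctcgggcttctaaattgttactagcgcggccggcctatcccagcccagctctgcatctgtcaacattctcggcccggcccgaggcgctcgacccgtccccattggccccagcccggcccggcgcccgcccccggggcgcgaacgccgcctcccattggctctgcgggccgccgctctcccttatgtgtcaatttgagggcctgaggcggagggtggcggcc
MXD3, chr5:177312753-177313002, reverse strand: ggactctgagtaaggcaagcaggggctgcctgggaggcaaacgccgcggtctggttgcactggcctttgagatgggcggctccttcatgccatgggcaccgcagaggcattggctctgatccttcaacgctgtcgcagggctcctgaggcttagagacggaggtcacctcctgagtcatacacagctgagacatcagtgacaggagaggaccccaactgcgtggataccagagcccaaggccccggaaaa
MNT, chr17:2401061-2401310, reverse strand: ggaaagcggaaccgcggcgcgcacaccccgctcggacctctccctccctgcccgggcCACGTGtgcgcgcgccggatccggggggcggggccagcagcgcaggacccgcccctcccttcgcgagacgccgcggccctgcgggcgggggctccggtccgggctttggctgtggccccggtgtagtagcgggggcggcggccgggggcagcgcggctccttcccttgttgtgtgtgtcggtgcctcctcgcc

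The E-box of MXD4 begins 238 bases before its start and that of MNT 193 bases before. MXD4, with the motif, passed the test and MNT, also with it, did not (the difference between them was not tested), and MXD3 rose without the motif in its window. The related letters CACGCG, searched on both strands, were found in 1 of 14 windows, at 1 start of MGA, and in 9.72% of all windows. A GC box, GGGCGG on either strand, was in 11 of 14 windows and in 42.6% of all windows, while CCAAT on either strand was in 4 of 14 and in 32.0% of all windows. These windows are rich in G and C, at 70.4% for MXD4, 60.4% for MXD3 and 78.0% for MNT, with a median of 58.0% over all windows. A match describes letters and not a bound site.

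Levels of different genes were compared per kilobase of their merged annotated exons. With DMSO, MYC led at 74.5 ± 2.33 CPM per kilobase (SD, n = 2), followed by MAX at 12.7 ± 0.580 (SD, n = 2). The antagonists then lay close together, with MNT at 3.98 ± 0.0460, MGA at 3.94 ± 0.742 and MXD1 at 3.64 ± 0.562 CPM per kilobase, which did not differ beyond their spread. MXI1 at 3.27 ± 0.0378 and MXD3 at 3.17 ± 0.138 also lay within their spread, MXD4 was the lowest antagonist at 2.24 ± 0.239, and MYCL was at 0.886 ± 0.0378 CPM per kilobase.

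After dBET1 the order was different. MYC still led at 44.8 ± 1.03 CPM per kilobase (SD, n = 2), but MXD4 was next at 12.1 ± 0.00740 and MXD3 followed at 8.71 ± 0.375, both above MAX at 7.44 ± 0.000167 CPM per kilobase. MXD1 at 4.94 ± 0.0631 and MGA at 4.90 ± 0.244 did not differ beyond their spread, MNT was at 4.31 ± 0.00725, MXI1 at 1.86 ± 0.136 and MYCL at 0.758 ± 0.0473 CPM per kilobase. MXD4 thus went from the lowest to the highest of the 6 antagonists. The same held for MXD4 when the longest transcript was used as the length, with MXD4 at 3.64 CPM per kilobase with DMSO and 19.7 with dBET1, ahead of MXD3 at 18.1. The order of the other antagonists with DMSO depended on the length. With the longest transcript MNT was at 7.03, MXD3 at 6.6, MXI1 at 5.56, MGA at 5.43 and MXD1 at 4.14 CPM per kilobase.

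The balance of the arms was then set out in each library. The 6 antagonists MXD1, MXD3, MXD4, MXI1, MNT and MGA summed to 21.0 and 19.5 CPM per kilobase with DMSO and to 36.9 and 36.8 with dBET1. MXD3 and MXD4 together made up 24.5% and 29.1% of that sum with DMSO and 57.2% and 55.9% with dBET1. The level of MYC over the sum of the antagonists was 3.47 and 3.90 with DMSO and 1.23 and 1.20 with dBET1. This is a log2 change of -1.6, beside a replicate SD of 0.0858, and the ratio with dBET1 was 0.330 of that with DMSO. Among all MAX partners measured, MYC made up 76.9% and 78.9% of the summed level with DMSO and 54.8% and 53.9% with dBET1. These are RNA levels, and no protein was measured in these files. No p is given for these ratios, since they score genes chosen for this description.

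**Figure D3:**
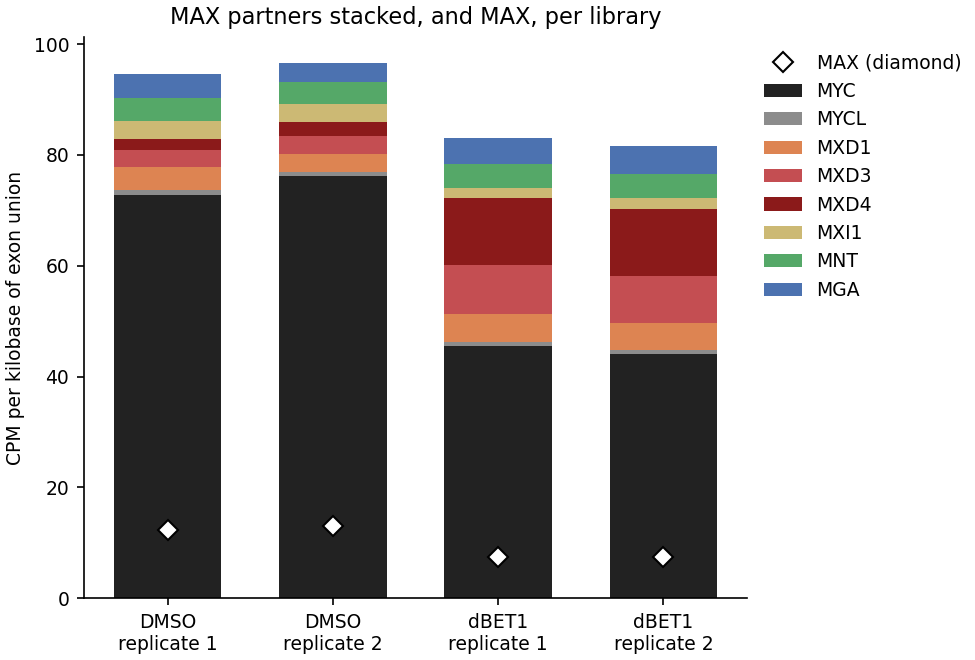
Summed level of the MAX partners in each library, in CPM per kilobase of merged exons, with 1 colour for each gene and MAX as a diamond on the same axis. The black MYC segment shrinks from about 74 to about 45 in the dBET1 libraries while the red MXD3 and MXD4 segments widen.

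A parallel branch of the network is built on MLX in place of MAX, and its partners MLXIP (MondoA) and MLXIPL (ChREBP) sense glucose metabolites. MLX had 3421 and 3129 counts with DMSO and 1731 and 1866 with dBET1, a log2 fold change of -0.86 (adjusted p = 0.000113). MLXIP rose, with 201 and 213 CPM with DMSO and 347 and 362 CPM with dBET1 (log2 fold change 0.78, adjusted p = 9.10e-05). MLXIPL had only 12 and 10 counts with DMSO and 27 and 26 with dBET1 (log2 fold change 1.26, adjusted p = 0.0359), and this call was lost without any 1 of the 4 libraries, with DESeq2 and with no count filter. The hub of each branch was therefore lower, while a sensor of the MLX branch and 3 of the MAX antagonists were higher. TXNIP, a known MondoA target, went from 164 ± 9.89 to 1342 ± 8.10 CPM (± SD of 2 libraries per group).

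The corepressors through which MXD proteins act were mostly lower. Of 18 SIN3 complex genes tested, 11 passed the test as lower (61.1%, beside 27.6% of all genes) and 3 as higher (16.7%, beside 28.0% of all genes), and their median log2 fold change was -0.42. RBBP7 and RBBP4, histone-binding subunits, had log2 fold changes of -0.92 and -0.54, and the deacetylase genes HDAC1 and HDAC2 had -0.41 and -0.50 (the last 2 were named after their values were seen). SAP30L and ARID4B rose by 0.63 and 0.49 on the log2 scale. The scaffold genes, also named after their values were seen, went in opposite directions, SIN3A with -0.54 (adjusted p = 0.00353) and SIN3B with 0.25 (adjusted p = 0.0362). With total counts in place of the normalization, 3573 of all 17971 genes were lower and their median was 0.26. Under that scaling 6 of the 18 SIN3 complex genes were lower and their median was -0.21. Without dBET1 replicate 2, and also with no count filter, 1 was higher.

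The Polycomb partners of MGA were fixed as a list of 12 genes. Of these, 7 were lower (58.3%, beside 27.6% of all genes) and 1 was higher (8.33%, beside 28.0%). The median log2 fold change was -0.41, beside 0.048 over all genes. With total counts it was -0.20, beside 0.26 over all genes. WDR5 fell from 125 ± 1.65 to 67.6 ± 1.82 CPM and TFDP1 from 232 ± 14.2 to 132 ± 2.73 CPM (± SD of 2 libraries per group). PCGF6, the subunit that defines this complex, was furthest down, at -0.98 on the log2 scale (adjusted p = 0.000432), and was named after its value was seen. YAF2 was higher, with a log2 fold change of 0.41 (adjusted p = 0.0343), but not with DESeq2, with no count filter, without DMSO replicate 2 or without either dBET1 replicate.

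Of 17 genes of MYC cofactors, 9 were lower (52.9%, beside 27.6% of all genes) and 2 were higher (11.8%, beside 28.0%), and the median was -0.64. WDR5 is in this list and in that of the Polycomb partners. RUVBL2 and RUVBL1, paired ATPases that bind MYC, fell from 407 ± 33.1 to 136 ± 1.89 CPM and from 164 ± 4.04 to 62.9 ± 0.592 CPM (± SD of 2 libraries per group). BPTF, a chromatin remodeler, and CREBBP, an acetyltransferase, rose by 0.73 and 0.43 on the log2 scale. The number of higher genes in the list was 6 with total counts, beside 6703 of all 17971 genes under that scaling. It was 5 with at least 10 counts required in every library and 1 with no count filter. It also changed when single libraries were left out.

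Of 16 genes that control MYC protein turnover, 9 were lower (56.2%, beside 27.6% of all genes) and 1 was higher (6.25%, beside 28.0%). The median was -0.35. With total counts it was -0.13, beside 0.26 over all genes. That scaling left 6 lower and 3 higher in the list, beside 3573 and 6703 of all 17971 genes. The ubiquitin ligase genes SKP2 and STUB1 fell, with log2 fold changes of -1.16 (adjusted p = 3.77e-05) and -1.29 (adjusted p = 4.37e-05). FBXW7, the ligase adaptor best known for MYC degradation, had 17.3 ± 0.223 CPM with DMSO and 18.2 ± 1.6 CPM with dBET1 (adjusted p = 0.681, ± SD of 2 libraries, named after its value was seen). FBXO32 rose on few counts, 9 and 8 with DMSO and 45 and 26 with dBET1. Of this list 4 genes were higher without DMSO replicate 1, and FBXO32 was not called with DESeq2 or without dBET1 replicate 1.

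Of 13 genes that act on MYC RNA, 11 were lower and 1, ZFP36, a factor that speeds decay of AU-rich RNAs, was higher (log2 fold change 1.15, adjusted p = 0.000450). These are 84.6% and 7.69% of the list, beside 27.6% and 28.0% of all genes, and the median was -0.76. HNRNPD, which also binds AU-rich RNA, fell from 479 ± 29.9 to 140 ± 0.419 CPM (± SD of 2 libraries per group). PVT1, the long non-coding RNA gene beside MYC, had 2414 and 2038 counts with DMSO and 537 and 516 with dBET1. The log2 fold change of PVT1, -2.07 with a standard error of 0.0936 (adjusted p = 7.91e-06), was further from 0 than the -0.73 (standard error 0.0696) of MYC, and the difference was not tested.

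Genes known from textbooks as MYC targets were counted as a readout of the network. The list was drawn up with earlier results of these libraries known, so its direction is not independent evidence. Of 28 activated genes, 26 were lower (92.9%, beside 27.6% of all genes) and 1 was higher (3.57%, beside 28.0%). Past the fold limit, 17 of the 28 were lower, beside 8.54% of all genes. The median was -1.22. LDHA, a glycolysis enzyme, fell from 1121 ± 31.5 to 305 ± 2.49 CPM, and ODC1, which starts polyamine synthesis, from 899 ± 5.98 to 268 ± 16.4 CPM (± SD of 2 libraries per group). CCND2, the cyclin D2 gene and a classic gene at which MYC and MXD1 complexes exchange, was the 1 gene that rose, from 57.9 ± 6.62 to 80.3 ± 1.83 CPM (± SD of 2 libraries, adjusted p = 0.00506). E2F1, a cell cycle transcription factor gene, did not pass the test (log2 fold change -0.13, adjusted p = 0.271).

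Of 14 genes described as repressed by MYC, 10 passed the count filter, of which 5 were higher (50%, beside 28.0% of all genes) and 3 were lower (30.0%, near the 27.6% of all genes), with a median of 0.32 (0.053 to 0.53 under the alternatives). CDKN1A, which encodes p21 and halts the cycle, had a log2 fold change of 3.21 (adjusted p = 2.21e-05). TXNIP, given above with the MLX branch, is also 1 of the 5 higher genes of this list. CCND1, cyclin D1, and NDRG2 went the other way, with -1.46 (adjusted p = 1.55e-05) and -0.31 (adjusted p = 0.0237). With total counts 7 were higher and 1 was lower, beside 6703 and 3573 of all 17971 genes under that scaling. The number of lower genes in the list also changed when either dBET1 replicate was left out. The 4 genes below the filter were CDKN2B, THBS1, GAS1 and PDGFRB.

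**Figure D4:**
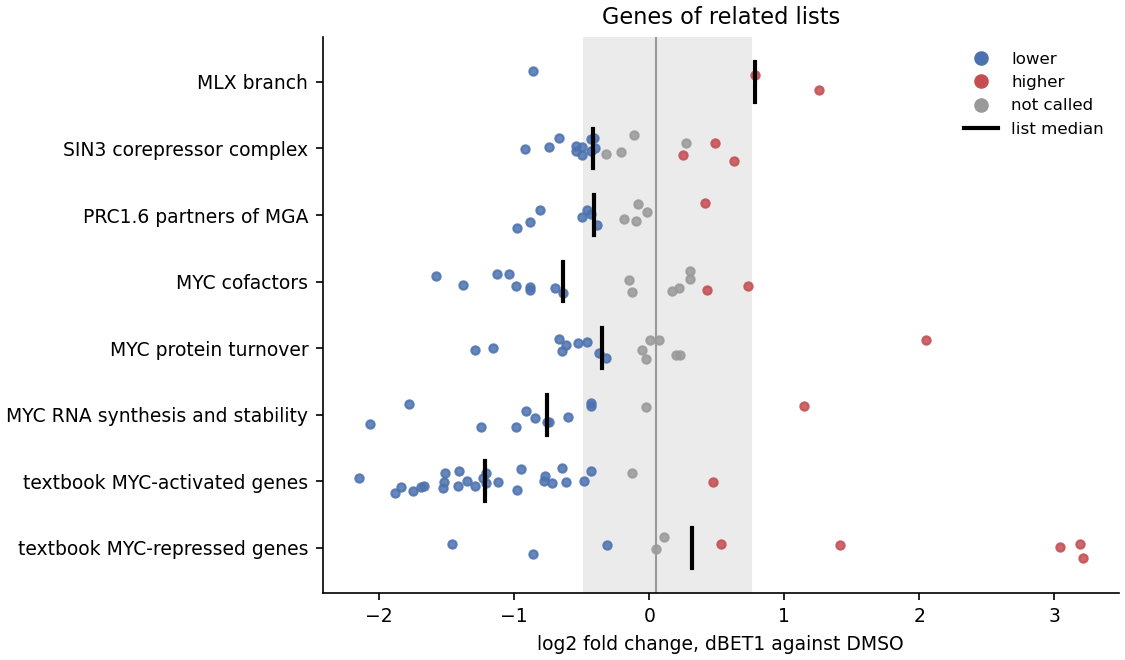
Log2 fold change of each tested gene in the 8 related lists (blue, lower, red, higher and grey, not called at an adjusted p under 0.05), with the list median as a black bar and the interquartile range of all tested genes as a grey band. The activated targets lie almost wholly left of 0, and the repressed targets lie on both sides.

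Genes with a pattern like that of a member were found by the distance between mean-centred log2 CPM over the 4 libraries, among 9723 other genes with at least 10 CPM on average. Among the nearest to MYC were UBE2D2 and EMC7, at distances of 0.00964 and 0.0237 log2 units. UBE2D2 had 173 and 181 CPM with DMSO and 108 and 106 CPM with dBET1. Nearest to MXD4, the antagonist with the smallest p, were SGSH, MT2A and MIR3648-1, at 0.104, 0.110 and 0.111. With 4 libraries in 2 groups, such a match says little beyond a like change.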

How the data were processed

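RNA of 2 dBET1 and 2 DMSO libraries was sequenced in pairs of 150 bp reads. The authors aligned them to hg38 with HISAT2 2.2.0, estimated abundance with StringTie and deposited whole-number counts per Ensembl gene, without normalization. The step from StringTie to counts and its strand setting are not given in the sources used here, so reads of overlapping genes may be shared. Columns were matched to samples by group name and replicate number, with NC read as the DMSO control, 0 columns were left out, and 0 rows named no gene. Symbols, positions and exon lengths came from GENCODE release 44 (56105 of 64252 identifiers matched), and promoter windows from RefSeq on GRCh38.p14.

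Counts were filtered with filterByExpr, scaled with TMM factors (0.918 to 1.08) and compared with the quasi-likelihood test of edgeR 4.0.16 in R 4.3.3, with the group as the only term and Benjamini-Hochberg adjustment over 17971 genes. The common biological coefficient of variation was 0.123. Standard errors are the fold change over the square root of F, and intervals cover 95%. Pattern distances used log2(CPM + 0.5). The fit was also run on simulated counts with a single dispersion, in which far fewer genes changed than here. Its error rate under a change as broad as in these libraries was therefore not tested. Depth was 28019956 to 34685645 counts, so the spread of 2 libraries, not counting, limits most values.

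The members and lists were chosen with earlier results of these data known. Named genes are the members, for each list the 2 genes per direction with the smallest p, the 3 nearest patterns of MYC and of 1 antagonist (1 of these genes is not reported here), genes whose exons overlap a member, and cell type markers. Alternatives tried were DESeq2 1.42.0, edgeR with the DESeq2 size factors, scaling to total counts, 2 other count filters, a replicate block, counts divided by 2 and each library left out in turn, and for the ratio another gene length and the sum without MGA.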

Additional observations from a re-analysis of the deposited data

How the results depend on the processing

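All 9 tested members kept the sign of their log2 fold change under each of the 11 alternatives, and MYC, MAX, MXI1, MXD3 and MXD4 stayed past an adjusted p under 0.05 in all 11 (MYC -0.79 to -0.52, MAX -0.84 to -0.56, MXI1 -0.90 to -0.60, MXD3 1.38 to 1.67 and MXD4 2.30 to 2.65). With total counts only, 5 members were higher in place of 3, since MNT (0.33, adjusted p = 0.0220) and MGA (0.52, adjusted p = 0.0117) passed the test with edgeR. Under that scaling the median of all genes was 0.26 in place of 0.048, and higher genes made up 65.2% of the calls in place of 50.4%. MXD1 passed in 7 of 11 alternatives and MGA in 5, among them the replicate block (0.32, adjusted p = 0.0413). MXD1 was also lost with no count filter (0.38, adjusted p = 0.117). The replicate block changed no other call of a member, but MLXIPL lost its call and 4 MYC cofactor genes were higher in place of 2. The replicate numbers were not taken as pairs, since deviations from the group means correlated by -0.000518 between libraries of the same number. The log2 change of the ratio of MYC to antagonists was -1.65 with the longest transcript, -1.70 without MGA and -1.68 to -1.52 with each library left out, and that of MYC to MAX, a measure added after the data were seen, was 0.0086 to 0.056. Of 88 list medians recomputed, 40 moved by more than the replicate spread, and of 176 list counts, 28 moved by more than 1.5 times. Groups of 2 are too small to test for single outlying libraries.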
